A study of Mus musculus with 4 samples.

Results

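The neutrophil primary granule and precursor genes are 7 genes chosen by name: Mpo, Elane, Prtn3, Ctsg, Cebpe, Gfi1 and Csf3r. The array probes were matched to them by RefSeq accession, and all 7 were found among the 20284 genes that the arrays could name. Each was read by 1 probe printed as 1 spot, so no member has another probe to set beside its main probe. Spleen RNA came from 5-day-old ICR mice, an outbred stock. The mothers had received carbon black nanoparticles (CB-NP), fine particles of nearly pure carbon, by instillation into the nose, in doses of 95 microg/kg given on days 5 and 9 of gestation, or distilled water in doses of 1 mL/kg on the same days. RNA was pooled within each group, the number of animals in a pool was not given in the sources used here, and each of the 4 pools (control males, CB-NP males, control females, CB-NP females) was read on 1 single-colour array. The pups themselves received nothing, and both sexes of both treatments shared strain, age and tissue.

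Neutrophils are made from progenitors that pass through the promyelocyte stage, when the cell fills its primary (azurophil) granules with myeloperoxidase and serine proteases. These granule genes are switched off as the cell matures, so their transcripts mark precursors rather than mature neutrophils. The spleen of the newborn mouse is a blood-forming organ and holds such precursors. In a whole-organ pool, fewer cells of a type and less RNA per cell cannot be told apart.

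All 7 members were well above background on all 4 arrays, with no spot saturated or flagged as an outlier. The spleen label was checked against marker genes of that organ. All 9 that had a probe were well above background on all 4 arrays, among them the spleen-forming transcription factor genes Tlx1 and Nkx2-5. This check covers detection only. Pancreatic acinar genes were read too, summing to 22.6 and 18.7 times the 75th percentile in male and female controls and 1.81 and 1.84 with CB-NP. Each sum leaves out genes not well above background on that array. Of 16 genes these were 2 in each control pool and 9 in each CB-NP pool, so the sums cover different genes. The source of the acinar transcripts was not tested. Levels are given as the processed signal, in scanner intensity units, and as the centred level, which is its log2 value minus the 75th percentile of the same array. In all lists of 4 values below, control males come first, then CB-NP males, control females and CB-NP females. The 75th percentiles were 335, 340, 392 and 317 units, so unscaled signals cannot be compared directly between arrays. For every member, the error that the files give for each spot amounts to a scanner error of 0.20 on a log2 difference. It covers the reading of the spots only. Its median over all genes compared was also 0.20 in both sexes. It is thus nearly the same cutoff for most genes, not a spread measured for each. With 1 array per group, no difference within a sex has a replicate spread, and precision is limited by how few arrays there are.

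The promoter table used here, made from RefSeq (build GRCm38.p6), held windows for 6 of the 7 members, all but Cebpe, and more than 1 for Gfi1. The 250 bases before the start site of the 4 granule protein genes are shown because these genes encode the stored proteins that define the primary granule. Each is written 5′ to 3′ on the strand of its gene, and capitals mark AGGAAGT, a core bound by ETS factors such as PU.1, and AACGG, a core bound by MYB, both regulators of myeloid genes.
Elane, chr10:79886062-79886311, plus strand: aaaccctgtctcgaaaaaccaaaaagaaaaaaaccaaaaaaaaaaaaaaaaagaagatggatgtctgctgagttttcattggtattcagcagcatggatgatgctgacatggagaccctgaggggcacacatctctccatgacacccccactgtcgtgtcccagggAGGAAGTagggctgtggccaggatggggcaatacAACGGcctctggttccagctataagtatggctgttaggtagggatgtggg
Prtn3, chr10:79879417-79879666, plus strand: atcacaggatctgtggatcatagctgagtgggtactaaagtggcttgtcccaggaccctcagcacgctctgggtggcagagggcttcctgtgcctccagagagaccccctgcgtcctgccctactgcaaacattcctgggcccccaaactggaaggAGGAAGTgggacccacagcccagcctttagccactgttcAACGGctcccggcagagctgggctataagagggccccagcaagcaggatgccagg
Mpo, chr11:87793534-87793783, plus strand: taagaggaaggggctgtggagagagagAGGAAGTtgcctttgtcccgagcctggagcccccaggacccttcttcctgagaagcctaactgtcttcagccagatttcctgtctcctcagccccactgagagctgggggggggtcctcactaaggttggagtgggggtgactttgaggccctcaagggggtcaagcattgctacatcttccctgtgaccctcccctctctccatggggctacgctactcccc
Ctsg, chr14:56102575-56102824, minus strand: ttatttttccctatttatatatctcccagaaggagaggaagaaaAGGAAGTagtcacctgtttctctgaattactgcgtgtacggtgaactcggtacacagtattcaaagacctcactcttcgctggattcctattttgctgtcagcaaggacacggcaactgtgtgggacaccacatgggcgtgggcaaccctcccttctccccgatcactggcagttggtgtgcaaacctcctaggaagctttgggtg
AGGAAGT stood in all 4 of these windows, beginning 84 bases before the start site in Elane, 94 in Prtn3, 223 in Mpo and 206 in Ctsg. It stood in neither the Csf3r window nor the Gfi1 windows, and on either strand (ACTTCCT on the other) it was present in 7.69% of the 32851 windows of the same length in the table. AACGG began 50 bases before the start site of Elane and 55 before that of Prtn3, and either strand (CCGTT on the other) was present in 14.5% of all windows. ATTGC, a core bound by C/EBP factors, began 56 bases before the Mpo start site. Its reverse complement, GCAAT, began at 57 bases in Elane and at 9 in Csf3r, and 23.1% of all windows held either. No matches of these letter strings overlapped in the member windows. The strings were chosen with the sequences in view, and a match is not a binding site.

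In the male pair 6 of 7 members were higher with CB-NP (45.2% of the 14189 genes compared were above 0), and in the female pair 6 of 7 were lower (56.7% of 14076 genes were below 0). The differences were small: the member median was 0.19 on the log2 scale in males and -0.33 in females, beside medians of all genes of -0.02 and -0.04. No member was at least 2-fold lower or higher in either sex, where 0.507% of genes were lower and 0.352% higher in males and 0.433% and 0.661% in females. Beyond the scanner error, 3 members were higher in males (Mpo, Elane and Gfi1, against 15.8% of all genes) and none was lower (15.1%). In females 4 were lower beyond it (Elane, Prtn3, Ctsg and Cebpe, against 24.9%) and none was higher (19.5%). These counts moved with the processing: 4 or 5 members were higher beyond the scanner error in males under 5 of 8 other processings, 6 were lower in females with median scaling, and Csf3r was higher beyond it in females under 4.

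**Figure D1:**
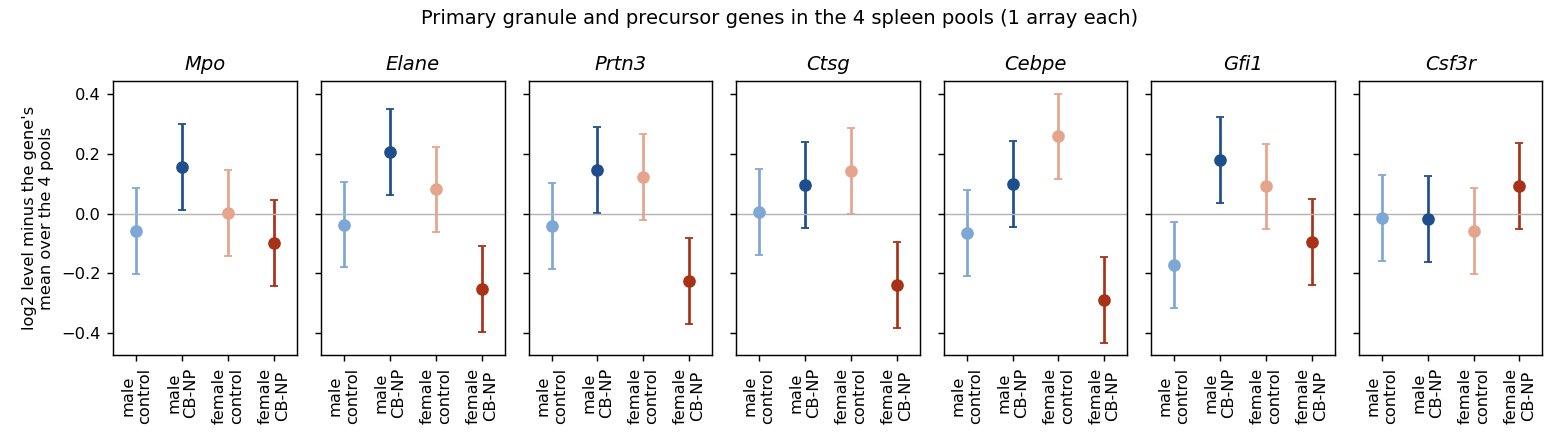
Centred log2 level of each member minus its own mean over the 4 pools; points are single arrays and bars are the scanner error of 1 array. The female CB-NP point is the lowest in Mpo, Elane, Prtn3, Ctsg and Cebpe. In Gfi1 the lowest point is male control, and in Csf3r it is female control.

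Mpo encodes myeloperoxidase, the haem enzyme of the primary granule that makes hypochlorous acid. Its processed signal was 50700 units in control males, 59700 in CB-NP males, 61800 in control females and 46700 in CB-NP females, and its centred levels were 7.24, 7.46, 7.30 and 7.20 in that order. Male CB-NP was highest and female CB-NP lowest, over a range of 0.25, and no neighbours in this order differed by more than the scanner error. CB-NP was 0.21 above control in males (1.16-fold) and -0.10 from control in females, where cyclic loess turned the sign to 0.03.

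Elane encodes neutrophil elastase, which digests proteins of bacteria and of the tissue matrix. Signals were 8980, 10800, 11400 and 7320 units in the 4 pools, with centred levels of 4.74, 4.99, 4.86 and 4.53. Female CB-NP stood below the next pool, male control, by 0.22, just over the scanner error, and the other neighbours lay closer. Elane was the only member whose differences exceeded the scanner error in both sexes, at 0.24 in males (1.18-fold higher) and -0.33 in females (1.26-fold lower).

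Prtn3 encodes proteinase 3, a relative of elastase and its immediate neighbour on chromosome 10. Signals were 2130, 2460, 2790 and 1770 units in the same order of pools, with centred levels of 2.67, 2.86, 2.83 and 2.48. Male CB-NP and female control lay within 0.02 of each other at the top, and female CB-NP was lowest. The difference was 0.19 in males, within the scanner error, and -0.35 in females (1.27-fold lower). The next protein-coding gene beyond Elane, Cfd, which encodes complement factor D, gave 0.34 and 0.36, but from signals of 17.1 to 30.2 units. On the other side, Plppr3 gave 0.14 and -0.03.

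Ctsg encodes cathepsin G, a granule protease with chymotrypsin-like activity that mouse mast cells also make. Signals were 17400, 18800, 22400 and 13900 units, with centred levels of 5.70, 5.79, 5.84 and 5.45 in the same order. Female control was highest, and female CB-NP lay 0.24 below the next pool, male control. The difference was 0.09 in males and -0.38 in females (1.30-fold lower). Ctsg lies on chromosome 14 among mast cell protease and granzyme genes. Of the 4 protein-coding genes on one side, Mcpt8, a basophil protease gene, gave 0.02 in males and -0.52 in females, Mcpt4, a mast cell protease gene, gave -0.75 and -0.23, and Mcpt2 gave -1.02 and -0.94. No array read Mcpt9, or the 4 granzyme genes on the other side (Gzme, Gzmd, Gzmg and Gzmn), well above background. The mast cell and basophil list was given a summed linear level, in units of each array's 75th percentile. It was 8.68, 7.08, 7.93 and 6.75 in the 4 pools. Of the 10 listed genes with a probe, 8 were well above background on all 4 arrays. Ms4a2 was so on none and Fcer1a on 1 array. The part of this list in the Ctsg values was not tested.

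Cebpe encodes C/EBP epsilon, a transcription factor needed for the step from promyelocyte to later granulocyte stages in neutrophils and eosinophils. Signals were 5110 units in control males, 5810 in CB-NP males, 7490 in control females and 4140 in CB-NP females, with centred levels of 3.93, 4.09, 4.26 and 3.71. This was the widest range among the members, 0.55, with the female control pool highest and the female CB-NP pool lowest, 0.22 below the next pool. The female difference of -0.55 (1.46-fold lower) was as low as or lower than that of all but 3.04% of genes, and the male difference was 0.16. The controls differed as well: female control was 0.32 above male control, and 6.41% of genes were as high or higher in that comparison.

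Gfi1 encodes a zinc-finger repressor that directs progenitors to the neutrophil rather than the monocyte fate, and is also used by lymphocytes and blood stem cells. Its signals were 911, 1180, 1280 and 909 units, with centred levels of 1.44, 1.80, 1.71 and 1.52. Gfi1 was the only member lowest in male control, and no neighbours in the order differed beyond the scanner error. The male difference, 0.35 (1.28-fold higher), was the largest among the members, and 7.85% of genes were as high or higher. In females it was -0.19, within the scanner error.

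Csf3r encodes the receptor for G-CSF, the growth factor of neutrophil production, and unlike the granule genes it stays on in mature neutrophils. Signals were 52600, 53300, 59700 and 53700 units, with centred levels of 7.29, 7.29, 7.25 and 7.40. The 4 pools lay within 0.15, less than the scanner error of a difference, and female CB-NP was the highest pool. The male difference was -0.0023, positive in 6 of 8 other processings (up to 0.11), and the female difference was 0.15.

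**Figure D2:**
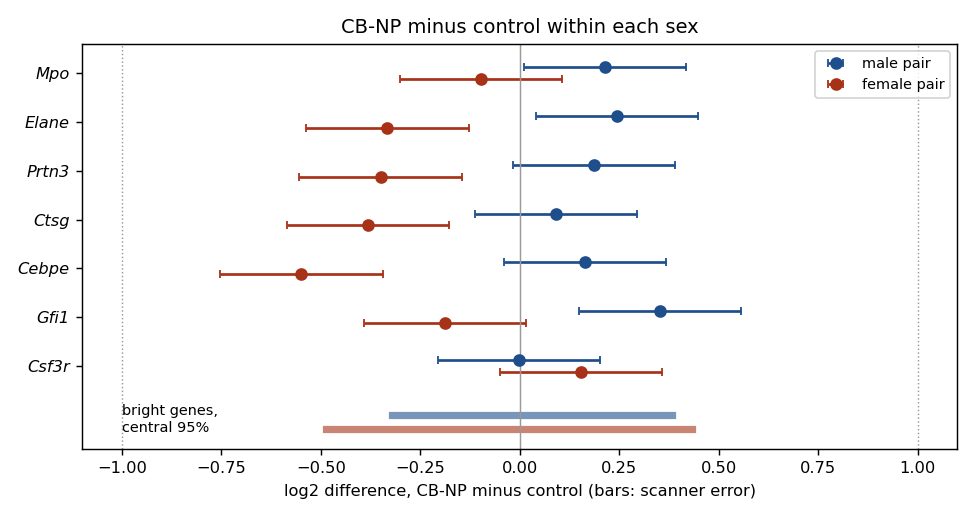
Log2 difference of CB-NP minus control for each member within each sex; bars are the scanner error, dotted lines mark 2-fold, and the thick bars give the central 95% of genes with a mean centred level of at least 1.62. Cebpe in females, at -0.55, is the only member value outside its thick bar.

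Brighter genes vary less between arrays. Among the 5428 genes whose mean centred level was at least 1.62, that of Gfi1, the central 95% of differences ran from -0.32 to 0.38 in males and from -0.49 to 0.43 in females. All 7 male values and 6 of 7 female values lay inside these ranges, and Cebpe in females lay outside.

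The study had control pools of both sexes, which show how far the members differed without exposure. Female control was above male control in 6 of 7 members (52.4% of 14165 genes), with a median of 0.14, and beyond the scanner error in Cebpe (0.32) and Gfi1 (0.26), where 1840 of the 14165 genes were higher beyond it. None was lower beyond it (13.9%). Between the CB-NP pools the order was opposite: female was below male in 6 of 7 members (57.0% of 14110 genes), all 6 beyond the scanner error (11.8%), and none was higher beyond it (9.99%). The median was -0.33. The lowest was Elane at -0.46, followed by Cebpe at -0.39 and Prtn3 at -0.37, and Csf3r was at 0.11. Among the 5428 bright genes, the central 95% between the CB-NP pools ran from -0.29 to 0.22. Elane, Cebpe, Prtn3 and Ctsg (-0.33) lay below this range, and Mpo, Gfi1 and Csf3r inside it. Between the control pools the range was -0.29 to 0.29, and Cebpe was the only member outside.

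The female difference minus the male difference was below 0 in 6 of 7 members (57.5% of 13936 genes), all 6 by more than its scanner error of 0.29 (12.8%). Its median was -0.54 over the members and -0.04 over all genes. Cebpe was at -0.71, where 1.75% of genes were as low or lower, Elane at -0.58, Gfi1 at -0.54, Prtn3 at -0.54, Ctsg at -0.47 and Mpo at -0.31. Csf3r was at 0.16. Among the 5428 bright genes, the central 95% of this value ran from -0.41 to 0.35. Cebpe, Elane, Gfi1, Prtn3 and Ctsg lay below this range, and Mpo and Csf3r inside it. A male difference above 0 together with a female difference below 0 was seen in 6 of 7 members and in 17.6% of genes. Opposite signs in either order were seen in 7 of 7 members and 32.8% of genes. Csf3r counted there only through its male difference of -0.0023, which was positive in 6 of 8 other processings. With 1 array per sex and treatment, the difference between the sexes was not tested.

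Over both sexes, the levels of the 2 CB-NP pools and of the 2 control pools overlapped in all 7 members. CB-NP and control pools did not overlap in 54.5% of the 13936 genes well above background on every array. Opposite signs in the male and female pairs force an overlap, so this count restates the signs given above. In Csf3r it rests on the male difference of -0.0023, which was positive in 6 of 8 other processings. A limma model with treatment and sex, fitted over 14503 genes with 1 residual degree of freedom, called no member at an adjusted p threshold of 0.05, and no member had an unadjusted p under 0.05. It called 10 genes lower (0.069%) and 2 higher (0.0138%) with CB-NP, and 1996 genes had an unadjusted p under 0.05. The shared differences ran from -0.19 ± 0.21 (SE) for Cebpe to 0.08 ± 0.17 for Gfi1, and the lowest adjusted p by limma was 0.644, for Ctsg (-0.15 ± 0.16, lower in 1 of 2 pairs). These p-values treat the 2 pools of a treatment as its replicates. An exact permutation test of 2 pools against 2 could not go below 0.333.

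Among themselves, the members were compared by the root mean square difference of their mean-centred levels over the 4 arrays. Prtn3 and Ctsg were nearest (0.0360), followed by Elane and Prtn3 (0.0393) and Elane and Ctsg (0.0679). The 3 serine protease genes were thus the 3 nearest of 21 pairs. These distances, and those of the next pairs, are below the scanner error of 0.20, so their order is not resolved. The member nearest to Cebpe was Ctsg (0.0727), and the member nearest to Mpo was Gfi1 (0.0739). The widest pair was Cebpe and Csf3r (0.257). The mean profile of Mpo, Elane, Prtn3 and Ctsg was -0.03, 0.15, 0.09 and -0.20 in the 4 pools. Outside the members, the nearest of 13936 genes over these 4 arrays were Fam174b (0.0138), Prm2 (0.0223), Kif3b (0.0227), Mad2l1bp (0.0240) and Zfp941 (0.0256). Prm2 was read at only 18.7 to 29.1 units. A total of 1258 genes, 9.03%, lay within 0.1 of the profile, so many genes share it over 4 arrays.

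The other primary granule and precursor genes, a list of 15, were all well above background on all 4 arrays. In males 14 of 15 were above 0 (45.2% of all genes), with a median of 0.13, and 5 were higher beyond the scanner error (15.8%). In females 11 of 15 were below 0 (56.7% of all genes), with a median of -0.27, and 8 were lower beyond it (24.9%). Fcnb, which encodes ficolin B, a pattern-recognition lectin of myeloid precursors, was the only listed gene at least 2-fold different: its female difference was -1.41 and its male difference -0.06. The following were named after their values were seen. Ms4a3, a membrane protein gene of granulocyte and monocyte precursors, gave 0.28 in males and -0.32 in females, and Prss57, which encodes a further neutrophil serine protease, gave 0.36 and -0.16. Ctsc, which encodes the peptidase that activates the granule proteases, gave 0.16 and 0.01. The limma model called none of the 15.

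Secondary granule and mature neutrophil genes, made later in maturation, were below 0 in females in 21 of 22 measured genes (56.7% of all genes), 16 of them beyond the scanner error (24.9%), with a median of -0.41. In males 18 of 22 were above 0 (45.2%), with a median of 0.10, and 7 were higher beyond it (15.8%). Female control was above male control in 20 of 22 (52.4% of all genes), with a median of 0.34. By the signal rule the examples were Camp, an antimicrobial peptide precursor (0.21 in males and -0.49 in females), Lcn2, which binds bacterial siderophores (0.15 and -0.67), and the calprotectin genes S100a8 (-0.03 and -0.34) and S100a9 (0.02 and -0.01). Their summed linear level was 1348, 1414, 1452 and 1223 times the 75th percentile in the 4 pools.

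**Figure D3:**
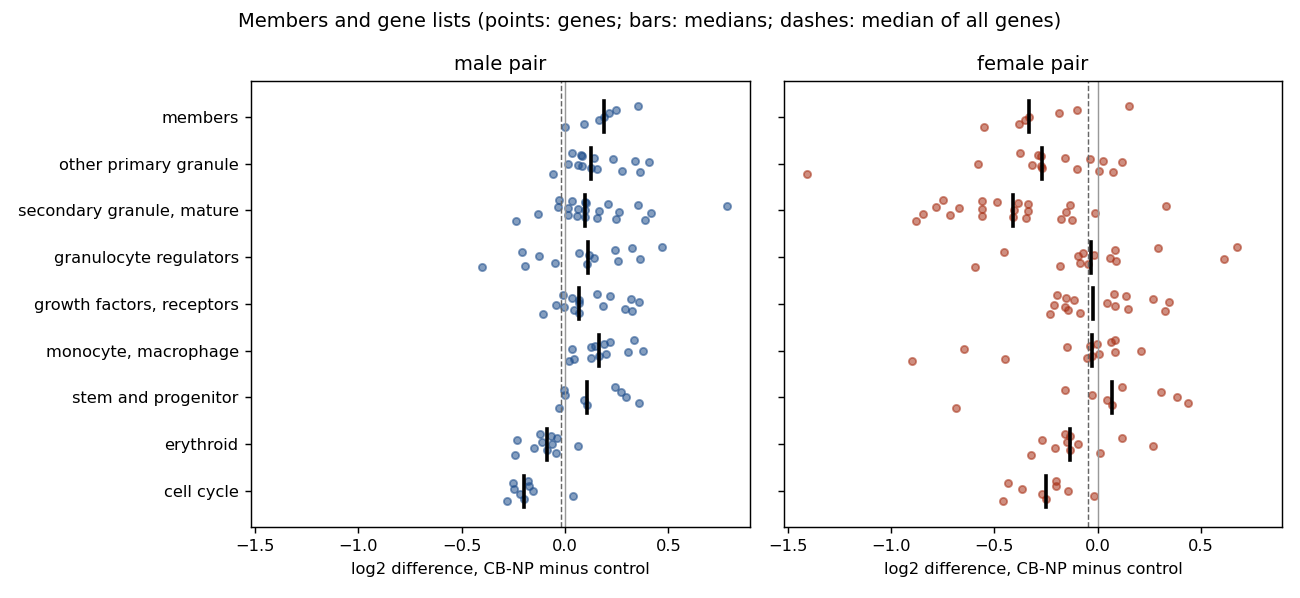
Log2 difference of CB-NP minus control for every measured gene of the members and 8 lists, male pair on the left and female pair on the right; bars are medians and the dashed line is the median of all genes. In females the 3 neutrophil rows have medians of -0.33, -0.27 and -0.41, and the other rows drawn lie between -0.25 and 0.07. Mast cell and basophil (-0.32), eosinophil (-1.36) and pancreatic (-3.64, from 7 of 16 genes) genes, which are not drawn, had female medians near or below these.

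Regulators and growth signals of granulocyte production had medians nearer to 0 in females than the members had. The list of 14 regulators also holds Per3, a circadian clock gene. Of the 14, 9 were above 0 in males (45.2% of all genes), with a median of 0.11. In females 8 were below 0 (56.7% of all genes), with a median of -0.03. Those with the highest signals were Gfi1b, the erythroid and platelet relative of Gfi1 (-0.21 in males and -0.18 in females), Irf8, which directs progenitors to monocytes and is used by B cells (0.47 and 0.29), Myb (0.07 and -0.09) and Cbfb, a partner of RUNX factors (0.11 and 0.08). Spi1, which encodes PU.1, gave -0.12 and -0.60 and Cebpd gave 0.26 and -0.45, the only regulators lower beyond the scanner error in females. Ets1 (0.36 and 0.61) and Lef1 (0.33 and 0.67), transcription factor genes also used by T cells, were higher beyond it in both sexes, as was Irf8. Spi1, Cebpd, Ets1 and Lef1 were named after their values were seen. Among 20 growth factors and receptors, 16 were measured in both sexes, with medians of 0.07 and -0.02. The ligand gene of the G-CSF receptor, Csf3, was well above background on none of the 4 arrays, nor were Csf2 and Il3. The best-read members were Cxcl12, a chemokine that holds precursors in their niche (-0.11 and -0.23), the macrophage growth factor receptor gene Csf1r (0.22 and 0.08), Csf2ra, a chain of the GM-CSF receptor (0.19 and -0.20), and Stat3, which relays the G-CSF signal (0.16 and 0.34). The limma model called no gene of either list.

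Markers of other cell types and states were read in the same pools. Monocyte and macrophage genes were above 0 in 13 of 13 in the male pair (45.2% of all genes), with a median of 0.16. In the female pair 8 of 13 were below 0 (56.7% of all genes), with a median of -0.03. Ly6c1 was at 0.13 and -0.90, Lyz1 at 0.15 and -0.15 and Vcam1 at 0.02 and -0.05. Stem and progenitor genes had medians of 0.11 and 0.07. Those named by the rule were Tal1 (-0.0014 and -0.03), Cd34 (0.11 and 0.38), Kit (-0.0028 and 0.04) and Meis1 (0.27 and 0.31). Erythroid genes had medians of -0.08 and -0.13 and cell cycle genes -0.20 and -0.25. Eosinophil genes, whose precursors also use Cebpe, had summed linear levels of 35.8, 13.1, 68.2 and 21.0 in the 4 pools, and medians of -1.15 in males and -1.36 in females. Mast cell and basophil genes had medians of -0.25 and -0.32. B cell genes had medians of 0.73 and 0.75, T cell genes 0.06 and 0.60, and pancreatic acinar genes summed to 22.6, 1.81, 18.7 and 1.84. All these sums leave out, on each array, the genes not well above background there. The part of these cell types in the members' values was not tested.

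**Figure D4:**
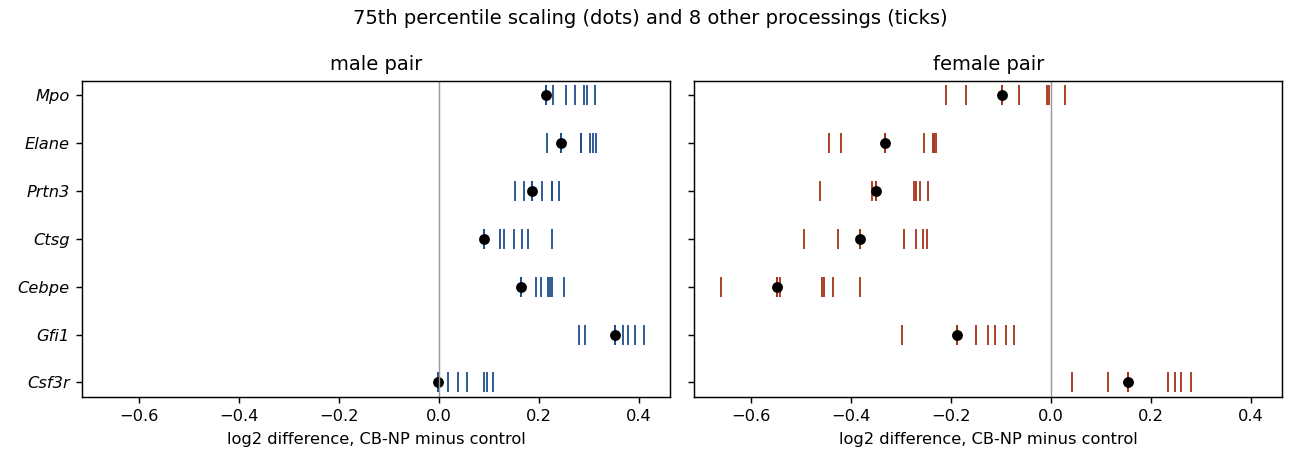
Log2 difference of CB-NP minus control for each member with the 75th percentile scaling (dots) and under 8 other processings (ticks). In females Elane, Prtn3, Ctsg, Cebpe and Gfi1 stay below 0 throughout and Mpo reaches 0.03 with cyclic loess, and in males Csf3r reaches from -0.0023 to 0.11.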

How the data were processed

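The arrays, of Agilent design 028005 for mouse (build mm9), were labelled with Cy3 and scanned in 1 colour, and per the file headers their spots were quantified by Agilent Feature Extraction 10.10.1.1. Per the file headers the processed signal is a linear intensity from which background was subtracted within each array, with no step between arrays. The other values used, per the file headers, are flags and an error for each spot. In the table of values that the authors deposited, each intensity was the processed signal multiplied by a constant of its array (3.10, 3.18, 2.64 and 3.49, within 1%). That table has column medians of 75.2, 76.1, 68.9 and 79.4, and what it was scaled to was not stated. Of 59305 non-control spots per array, 57.3% to 59.0% were well above background, and all 4 arrays lay on 1 slide, where position and group cannot be told apart.

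Log2 processed signals were centred on the 75th percentile of non-control spots. Spots of a probe were averaged without outlier flags, and the probe with the highest mean signal stood for a gene. Of 55681 probes, 26762 matched 20284 genes by RefSeq accession. A gene entered a comparison within a pair when well above background on both arrays. The limma model, tested on simulated data, was fitted to genes that at least 2 arrays read well above background, and its p-values were adjusted by Benjamini-Hochberg. The 8 other processings of values were normexp (offset 50, on median pixel signals) alone or with quantile normalization, median scaling, quantile normalization, cyclic loess, the authors' value table, the mean of all probes and outlier spots kept, and limma was also run with 4 other settings. For the members, which have 1 probe and no outlier flag each, the mean of all probes and outlier spots kept return the main values. The members and lists were chosen with earlier results of these data known. Genes named from a list were, by rule, up to 4 that differed at least 2-fold in a pair, or otherwise up to 4 of the highest signal. For the lists of B cells, T cells, eosinophils, mast cells and basophils, pancreas, erythroid cells and the cell cycle, the text gives medians or sums in place of single genes. The software was Python 3.11.15, pandas 2.3.3, numpy 2.4.6, matplotlib 3.10.9, R 4.3.3 and limma 3.58.1.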

Additional observations from a re-analysis of the deposited data

Results flagged for a closer look

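All 7 members had differences of opposite sign in the male and female pairs, as did 32.8% of the 13936 genes well above background on every array. Csf3r counted only through its male difference of -0.0023, which was positive in 6 of 8 other processings. Its female difference was positive in all 8. Mpo in females turned to 0.03 with cyclic loess. The female difference minus the male difference was -0.31 for Mpo, -0.58 for Elane, -0.54 for Prtn3, -0.47 for Ctsg, -0.71 for Cebpe, -0.54 for Gfi1 and 0.16 for Csf3r. With the 75th percentile scaling, only in Elane did both differences exceed the scanner error, at 0.24 and -0.33. Under some other processings both did so in further members, among them Prtn3 and Cebpe. The difference between the sexes was not tested, since each rests on 4 arrays with no replicate.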

How the results depend on the processing

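No member was at least 2-fold lower or higher in either sex, and limma called none, under any of the 8 other processings of values or the 12 other settings of limma, with the lowest adjusted p of a member by limma between 0.331 and 0.915. The member median ran from 0.19 to 0.25 in males and from -0.44 to -0.23 in females. With median scaling the all-gene median of the female pair went from -0.04 to -0.16, and the member median to -0.44. Relative to the median of all genes, the member median lay between 0.20 and 0.25 in males and between -0.33 and -0.22 in females. Among the 14 single differences, Csf3r in males changed sign in 6 of 8 processings and Mpo in females in 1, and the cause was not tested. The mean of all probes and outlier spots kept could not change a member's value, since each member has 1 probe and no outlier flag. Csf3r in males thus changed sign in all 6 processings that could alter it. Over all genes, limma called 10 lower and 2 higher in the main setting, 173 and 171 with median scaling, 253 and 359 with normexp, 26 and 19 with normexp and quantile normalization, 153 and 227 with an intensity trend, 3 and 0 with quantile normalization or cyclic loess, 2 and 0 with the authors' table, 7 and 1 with the mean of all probes, 7 and 2 without sex, and 0 with genes well above background on all 4 arrays (2113 at an unadjusted p under 0.05) or with no filter (1363). Leaving out 1 of the 4 arrays leaves the limma model no residual degree of freedom, and the shared difference is then the value of the other sex, given in the report. The sex term pairs the 2 pools of a sex, and without it no member was called either. The labels give no replicate numbers to use as a further block. The precision is limited by 1 array per group and 1 spot per member.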
